A study of Drosophila melanogaster with 6 samples.

Results

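The genes described here are the 73 measured genes that lie at the centromere-side ends of 3 chromosome arms of Drosophila melanogaster. They were selected by position and by level from a deposited table of 17483 genes. The position rule took genes that start at base 22000000 or beyond on 2L, at 23000000 or beyond on 3L, or below base 4000000 on 3R, where the numbering begins at the centromere. Level entered the choice through FPKM (mapped fragments scaled by transcript length and by the total of the library), which had to be at least 0.5 in at least 3 of 6 libraries. Of the 126 genes in these stretches, 46 fell under that minimum and 7 more were left out by symbol (RpL21, RpL5, RpL10, RpL15, ND-AGGG, Snap25 and nAChRalpha4). The 73 that remain comprise 27 genes on 2L, 40 on 3L and 6 on 3R. The stretches were proposed with the response of their genes to spermidine in these same libraries already known, so the counts below describe the region and are no independent test of it.

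The DNA around a centromere is packed as constitutive heterochromatin, in which nucleosomes carry methylation of lysine 9 of histone H3 and are bound by heterochromatin protein HP1a. This packing silences most genes that are moved into it, yet in the fly some essential genes reside there naturally. Classical work on the light and rolled genes showed that such residents depend on their heterochromatic surroundings to be expressed properly. The genes are often long, with introns filled with transposon remnants and other repeats.

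All 6 libraries came from hand-dissected, frozen brains of 15-day-old flies of the white-eyed laboratory strain w1118. Normal food was given to the flies of 3 libraries, and normal food with spermidine, a polyamine, to those of the other 3. The labels name no allele or transgene beyond the strain, and they give no sex and no spermidine dose. The study asked what spermidine does to the transcriptome of the ageing brain, and the only comparison is spermidine food against normal food. Replicates are numbered 1 to 3 within each food, but nothing states whether they are separate cultures, so the p-values measure a spread between libraries that may be technical. With 3 libraries against 3, an exact permutation test of 1 gene can reach no p below 0.1, and none is given.

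Marker genes of other cell types differed in level between the libraries. The summed FPKM of 5 photoreceptor markers was 1256 in normal food replicate 1, against 8281 and 5248 in the other normal food libraries and 7542 to 10471 on spermidine food. The summed FPKM of 7 fat body markers was 1910 to 2511 on normal food and 9629 to 10639 on spermidine food, and 4 of the 6 that could be tested rose (limma). Those 4 were Yp1, Yp2, Yp3 and fit, while apolpp and Lsp2 were not called and Fbp1 was too low to test. Yp2 and Yp3 had the highest FPKM of the 7 in every library, so the sum mostly follows the yolk protein genes. Neuronal markers summed to 1481 to 1563 FPKM on normal food and 1459 to 1470 on spermidine food, and glial markers to 1492 to 1653 and 1642 to 1716. Sums of 5 haemocyte markers were 14.7 to 22.8 FPKM on normal food and 25.3 to 26.7 on spermidine food, and 1 of the 4 that could be tested rose, the scavenger receptor gene Sr-CI. Sums of 5 muscle markers were 8.46 to 41.7 and 6.91 to 22.8 FPKM, and those of 5 testis markers 2.31 to 3.16 and 2.32 to 2.82 FPKM. No defining marker of any of these cell types was at 0 in all libraries. The part of these marker differences in the results below was not tested, and in bulk RNA fewer cells of a type and less RNA per cell cannot be told apart.

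Genes of these pericentromeric stretches were lower on spermidine food far more often than higher. By limma on log2(FPKM + 1) over 10366 genes, with a Benjamini-Hochberg adjusted p under 0.05, 20 of the 73 members (27.4%) fell, none rose and 53 did not pass. The background was 4.74% of all tested genes called in either direction, 1.52% lower and 3.21% higher. Among those 20, the level of lt, a subunit of a vesicle tethering complex, fell by 16.6%, the smallest step, and that of CG33217, a gene with no described function, fell by 65.6%, the largest. At an unadjusted p under 0.05, 35 members were lower and 3 higher in limma. Of all 10366 tested genes, 803 were lower and 1380 higher at that limit.

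Directions were counted over all members, called or not. A lower mean FPKM on spermidine food was found in 52 of 73 members (71.2%), against 42.4% of all tested genes. Every spermidine food library lay below every normal food library in 36 members, or 49.3%, against 10.8% of all tested genes. The opposite order was found in 6 members, where the background was 17.2%. The median log2 fold change of the members was -0.12, with quartiles at -0.35 and 0.02 and a range from -1.29 to 0.35, while the median of all tested genes was 0.02. Among the 53 members that did not pass, the lean was weaker: 32 had a lower mean (60.4%), 16 had the groups apart and lower (30.2%), and the median log2 fold change was -0.05. All these counts include the members whose level was low, since 4 members met the minimum level in only 3 to 5 libraries (lncRNA:CR44809, CG17374, CG42598 and Myo81F) and the other 69 met it in all 6.

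**Figure D1:**
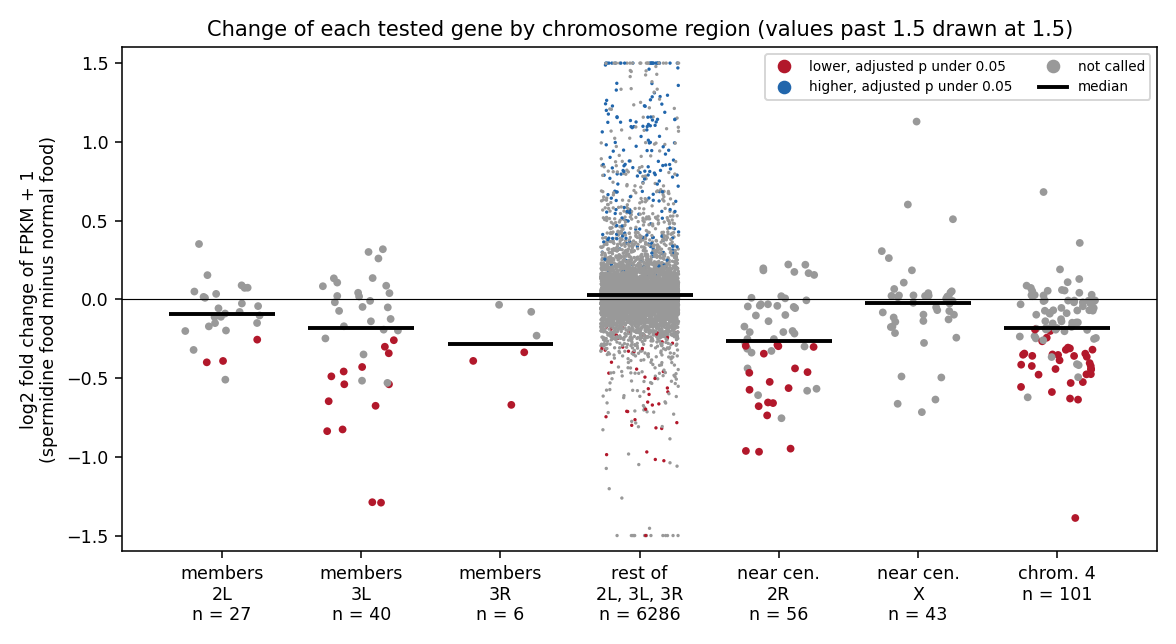
Log2 fold change (spermidine minus normal food, log2(FPKM + 1) scale) of every tested gene on the vertical axis, grouped by chromosome region on the horizontal axis; each point is a gene, red points are lower and blue points higher at a limma adjusted p under 0.05, and the black line is the median. The 73 members have 20 red and no blue points and a median of -0.12, while the 6286 other genes of the same arms have 47 red points, 3.26% blue points and a median of 0.03.

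Elsewhere on the same arms the counts ran the other way. Of the 6286 other tested genes of 2L, 3L and 3R, 47 fell (0.748%) and 3.26% rose, and 41.3% had a lower mean. The members thus hold 12.7% of all 158 lower calls in the fly genome. Members were longer and more abundant than those other genes, with a median span of 5.46 kb against 2.49 kb and a median level of 36.8 FPKM against 15.0. Among the 1025 other genes of these arms that span over 10 kb, 10 fell and 10 rose in limma. Their median log2 fold change was -0.01. By the authors' deposited p-values 244 of the 1025 were lower and 50 higher. All 6286 other genes of these arms had 486 lower and 546 higher by those p-values. Among the 23 members that span over 10 kb 7 fell, with a median of -0.20, and among the 50 shorter members 13 fell, with a median of -0.10. None of the 151 others spanning over 50 kb was called in limma, and their median log2 fold change was -0.03. At an unadjusted p under 0.05, 25 of the 151 were lower and 3 higher. All 6286 other genes of these arms had 414 lower and 885 higher at that limit. The authors' deposited p-values, adjusted over the same genes, placed 54 of those 151 lower and 1 higher. Of the 6 members of that length 2 fell.

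Other heterochromatic territories were mixed. Of 56 tested genes of 2R that start below base 5600000, on the centromere side of that arm, 18 fell and none rose, with a median log2 fold change of -0.27. Chromosome 4, a small chromosome rich in heterochromatin, had 34 of 101 genes lower and none higher, with a median of -0.18. On the X chromosome none of the 43 genes from base 22000000 onward was called by limma, and their median was -0.02. At an unadjusted p under 0.05, 7 were lower and 2 higher, where all 10366 tested genes had 803 lower and 1380 higher. In the authors' deposited p-values, adjusted over the same genes, 4 of those 43 were lower and none higher. Of all tested genes, 8.7% were lower and 8.2% higher by that measure. Whether the members differ from these regions was not tested.

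Role groups were assigned after the values were seen, so the counts by group only describe the members. Of 4 genes placed under membrane traffic 3 fell, and they included subunits of the same complex. CG41099, annotated with endocytosis, was given no role and is described further below. The lysosomal tethering complex HOPS joins late endosomes, autophagosomes and lysosomes before fusion. Its subunit Vps41 is encoded by lt (light, FBgn0002566, 2L, 22924795 to 22943135), named for its pale eye phenotype and a classic resident of heterochromatin. The level of lt was 49.2, 47.7 and 46.5 FPKM in normal food replicates 1, 2 and 3, and 40.1, 41.5 and 38.1 FPKM in the spermidine food replicates. All spermidine food libraries lay below all normal food libraries. The mean went from 47.8 ± 1.36 to 39.9 ± 1.73 FPKM (SD, n = 3 each), and lt fell by 0.26 ± 0.04 on the log2 scale (SE; limma, adjusted p = 0.0311). That call was lost when any library was left out, with adjusted p between 0.0505 and 0.108.

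Vps11 (FBgn0052350, 3L, 23147656 to 23150499) encodes another subunit of HOPS. Its level was 11.6, 8.63 and 7.31 FPKM on normal food and 4.58, 4.92 and 4.34 FPKM on spermidine food. The groups did not overlap, and the spread was wide on normal food and narrow on spermidine food. Vps11 fell by 0.84 ± 0.15 on the log2 scale (SE; limma, adjusted p = 0.0349), and its mean fell by 49.7%. The call held in only 2 of the 6 fits with a library left out (limma, highest adjusted p = 0.141). An antisense RNA, asRNA:CR45164, shares 788 exonic bases with Vps11 on the opposite strand, and its FPKM also fell, from 14.7 ± 0.69 to 10.4 ± 0.57 (SD, n = 3 each; limma, adjusted p = 0.0150). In the authors' deposited table, however, asRNA:CR45164 has 1.26 and 0.64 mean normalized counts on normal and spermidine food, against 938 and 402 for Vps11. Almost no counted reads were thus assigned to the antisense entry. Since the use of strand in counting and in FPKM is not stated, reads of the pair cannot be told apart in the FPKM values.

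The third gene of the group to fall was Alg-2 (FBgn0086378, 3R, 3623143 to 3627690), which encodes a calcium-binding protein whose mammalian relative acts in vesicle transport. It had 43.2, 43.4 and 41.0 FPKM on normal food and 31.5, 32.4 and 32.7 FPKM on spermidine food. The libraries of each food lay close together and far from those of the other. Alg-2 fell by 0.39 ± 0.04 on the log2 scale (SE; limma, adjusted p = 0.00718), its mean fell by 24.3%, and the call held without each library in turn (highest adjusted p = 0.0473). The fourth gene, lovit, encodes the transporter that loads histamine into synaptic vesicles of photoreceptors. It had 7.09, 21.5 and 15.4 FPKM on normal food and 10.6, 15.2 and 12.7 FPKM on spermidine food, so the groups overlapped. Its lowest value was in normal food replicate 1, the library with the least photoreceptor RNA.

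Among 9 genes of transcription and chromosome structure, 3 fell and 6 did not pass, with a median log2 fold change of -0.15. Parp1 (FBgn0010247, 3R, 3461351 to 3587054) encodes poly(ADP-ribose) polymerase, which modifies chromatin proteins at DNA breaks and at induced genes. Its level was 21.0, 18.01 and 16.2 FPKM on normal food and 10.9, 11.7 and 10.7 FPKM on spermidine food. Every spermidine food library was well below the lowest normal food library. The mean fell from 18.4 ± 2.42 to 11.1 ± 0.51 FPKM (SD, n = 3 each), and the log2 fold change was -0.67 ± 0.09 (SE; limma, adjusted p = 0.0192). This call held in 3 of the 6 fits with a library left out (limma, highest adjusted p = 0.0963).

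The gene vtd (verthandi, FBgn0260987, 3L, 27136525 to 27157999) encodes the Rad21 subunit of cohesin, the ring that holds sister chromatids together and also shapes gene regulation in neurons. It had 64.0, 61.3 and 62.0 FPKM on normal food and 50.8, 52.2 and 48.6 FPKM on spermidine food, with no overlap. vtd fell by 0.30 ± 0.04 on the log2 scale (SE; limma, adjusted p = 0.0155), and its mean fell by 19.1%. Set1 (FBgn0040022, 3L, 25107594 to 25115180), the main methyltransferase of histone H3 lysine 4, had 51.9, 49.4 and 49.4 FPKM on normal food and 43.2, 43.0 and 39.3 FPKM on spermidine food. These groups were also apart, and Set1 fell by 0.26 ± 0.05 on the log2 scale (SE; limma, adjusted p = 0.0382), but the call was lost without any 1 library (adjusted p from 0.0774 to 0.103).

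Of the 6 others in this group, 4 lay close to their normal food level. MED21, a Mediator subunit whose gene shares 257 exonic bases with Set1 on the opposite strand, had means of 71.3 and 71.1 FPKM. Clamp, a zinc finger factor that guides dosage compensation to the X chromosome, had 35.5 and 36.5 FPKM. CycK, a cyclin of transcription elongation, had 35.6 and 36.9 FPKM, and scro, a homeodomain factor of the optic lobe, had 65.0 and 62.8 FPKM. The groups were apart and lower for the other two, with log2 fold changes of -0.15 for Tif-IA, an initiation factor of RNA polymerase I (limma, adjusted p = 0.112), and -0.15 for tio, a zinc finger factor (adjusted p = 0.200).

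**Figure D2:**
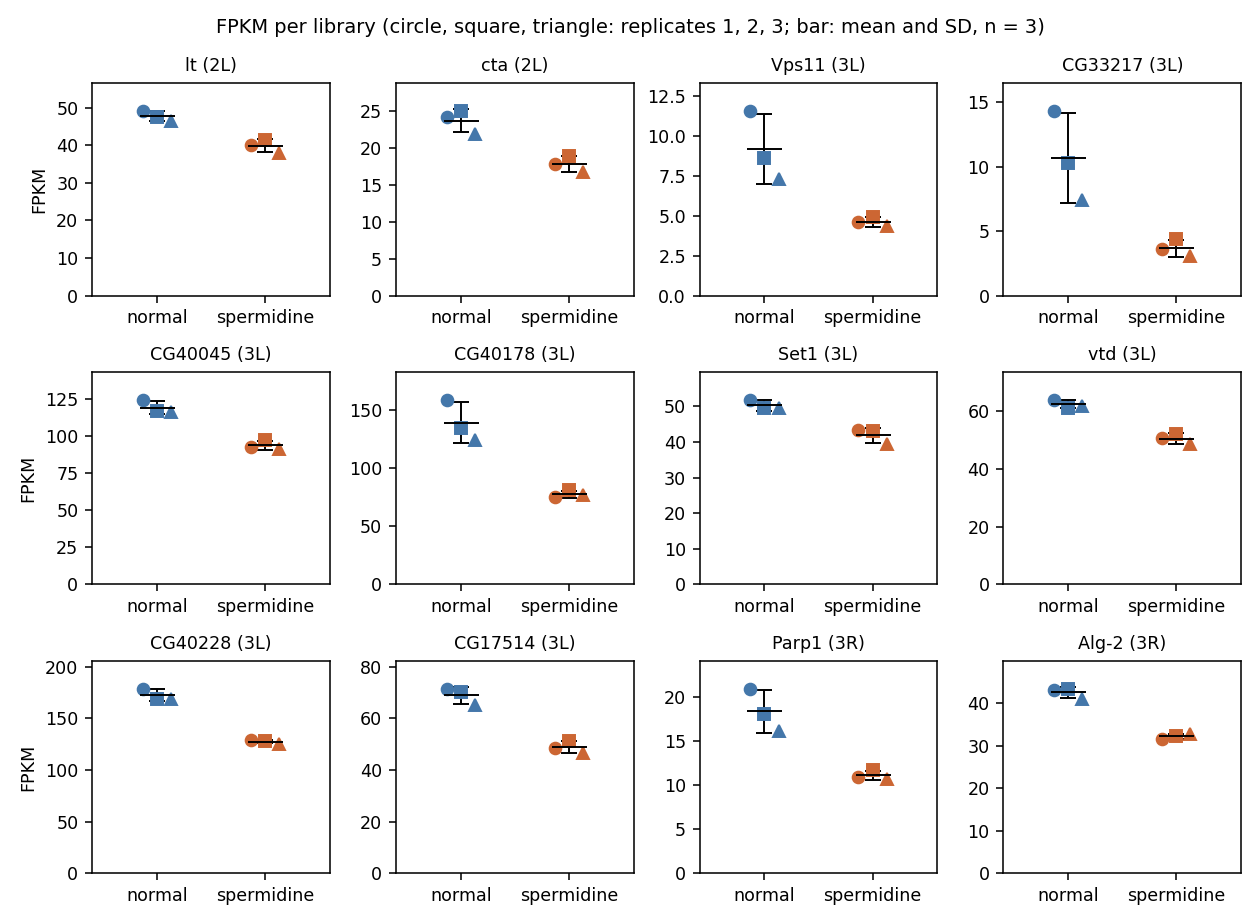
FPKM (vertical axis, starting at 0) in each of the 6 libraries for selected members, with normal food and spermidine food side by side; circles, squares and triangles are replicates 1, 2 and 3, and the bars give the mean and SD (n = 3). In CG40228 the normal food libraries lie at 168 to 179 FPKM and the spermidine food libraries at 126 to 129.

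Of 5 genes of RNA processing and translation, 1 fell. CG17514 (FBgn0039959, 3L, 27967244 to 28012599), annotated as a translation activator, had 71.5, 70.01 and 65.1 FPKM on normal food and 48.6, 51.1 and 46.6 FPKM on spermidine food. The groups were far apart, and the gene fell by 0.49 ± 0.05 on the log2 scale (SE; limma, adjusted p = 0.0089), while its mean fell by 29.2%. Dbp80, a DEAD-box helicase of messenger RNA export, had 76.8 ± 4.48 and 66.8 ± 2.73 FPKM (SD, n = 3 each), with the groups apart and an adjusted p of 0.102 in limma. The splicing factor genes Spf30 and Spf45 had log2 fold changes of -0.14 and 0.09, and the initiation factor gene eIF4B had -0.02, none of which passed.

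Of 10 genes of signalling, adhesion and the cytoskeleton, 1 fell, although 9 had a lower mean. The one past the test was cta (concertina, FBgn0000384, 2L, 22981816 to 22992951), a G protein alpha subunit known for driving cell shape change in gastrulation. It had 24.1, 24.98 and 21.9 FPKM on normal food and 17.8, 18.9 and 16.8 FPKM on spermidine food. No spermidine food library reached the normal food range, and cta fell by 0.39 ± 0.07 on the log2 scale (SE; limma, adjusted p = 0.0303). Its call held in only 2 of the 6 fits with a library left out (limma, highest adjusted p = 0.115). Groups were also apart, without passing, for the adhesion gene alpha-Cat (111 and 98.7 FPKM; limma, adjusted p = 0.0900), the kinase gene CG17698 (169 and 142 FPKM; adjusted p = 0.143), CG42748 (83.0 and 76.8 FPKM; adjusted p = 0.130) and Slmap (41.6 and 39.1 FPKM; adjusted p = 0.238). CkIIalpha, the catalytic subunit of casein kinase 2, had 105 and 96.7 FPKM with overlapping groups. Myo81F, a myosin gene that covers 1669 kb of the table's 3R, was near the minimum level at 0.54 ± 0.11 and 0.45 ± 0.09 FPKM (SD, n = 3 each).

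None of 7 genes with mitochondrial products passed limma in either direction. At an unadjusted p under 0.05, 2 of them (mRpS5 and UQCR-11) were lower, as were 803 of all 10366 tested genes. By the authors' deposited p-values 3 of the 7 were lower, against 8.7% of all tested genes. ND-MLRQ, annotated to the respiratory chain and the most abundant member, had 774, 663 and 702 FPKM on normal food and 791, 742 and 670 FPKM on spermidine food. UQCR-11, a complex III subunit, had 280, 243 and 267 FPKM on normal food and 239, 226 and 224 FPKM on spermidine food. The former groups overlapped and the latter did not (limma, adjusted p = 0.832 and 0.149). mRpS5, a protein of the mitochondrial ribosome, had 99.3, 85.6 and 82.4 FPKM on normal food and 73.9, 70.3 and 64.5 FPKM on spermidine food, and did not pass with groups apart (adjusted p = 0.0733). Tim17b of the inner membrane import channel had 142 and 139 FPKM, CG41128 had 118 and 100.1 FPKM, and Nubpl, an assembly factor of complex I, had 92.9 and 97.9 FPKM.

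Among 6 other enzymes 1 fell, and the group held the members with the highest positive changes among protein-coding genes. CG40045, annotated with ubiquitin transferase activity, had 124, 117 and 116 FPKM on normal food and 92.8, 97.3 and 91.0 FPKM on spermidine food. With the groups apart, it fell by 0.34 ± 0.04 on the log2 scale (SE; limma, adjusted p = 0.0150). CG12567, annotated as a thiamine diphosphokinase, had 43.7 and 37.9 FPKM (limma, adjusted p = 0.0844). CG40470, annotated as a metallopeptidase, had 58.5, 33.4 and 36.6 FPKM on normal food and 32.6, 25.8 and 28.1 FPKM on spermidine food, and its groups were apart only narrowly. Higher means were found for CG17374 (0.54 and 0.92 FPKM; limma, adjusted p = 0.129) and for CG40160, annotated as a serine protease (7.37 and 9.27 FPKM; adjusted p = 0.122). In both of these all spermidine food libraries lay above all normal food libraries, yet neither passed the test. Cht10, a chitinase gene, had 1.77 and 1.79 FPKM.

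Of 10 genes without an assigned role 4 fell, with a median log2 fold change of -0.26. CG40178 (FBgn0058178, 3L, 25798441 to 26014112) had 159, 134 and 124 FPKM on normal food and 75.2, 81.0 and 76.7 FPKM on spermidine food. Its lowest normal food library was far above its highest spermidine food library, and it fell by 0.83 ± 0.09 on the log2 scale (SE; limma, adjusted p = 0.0106), and its mean fell by 44.2%.

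CG40228 (FBgn0063670, 3L, 27082091 to 27083906) had the smallest adjusted p of all members. Its level was 179, 168 and 169 FPKM on normal food and 129, 128 and 126 FPKM on spermidine food. Replicates were tight and the groups apart, and CG40228 fell by 0.43 ± 0.04 on the log2 scale (SE; limma, adjusted p = 0.00595), a call that held without each library in turn (highest adjusted p = 0.0462). CG33217 (FBgn0053217, 3L, 23126025 to 23132209) had 14.4, 10.3 and 7.44 FPKM on normal food and 3.62, 4.36 and 3.05 FPKM on spermidine food. The normal food libraries were uneven but none overlapped the other group, and the gene fell by 1.29 ± 0.22 on the log2 scale (SE; limma, adjusted p = 0.0324). That call held in only 2 of the 6 fits with a library left out (limma, highest adjusted p = 0.133). CG41099 (FBgn0039955, 3R, 3846729 to 3868401), annotated with endocytosis, had 53.8, 51.8 and 48.9 FPKM on normal food and 42.0, 40.9 and 38.9 FPKM on spermidine food. These groups were apart, and CG41099 fell by 0.34 ± 0.05 on the log2 scale (SE; limma, adjusted p = 0.0215). Its call, too, held in only 2 of the 6 fits with a library left out (limma, highest adjusted p = 0.0910).

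The other 6 genes of that group did not pass. CG40439 (47.1 and 37.5 FPKM) and CG17715 (105 and 93.4 FPKM) each had an adjusted p of 0.0919 in limma, and their groups were apart. CG17490 (19.5 and 16.8 FPKM) was apart as well (adjusted p = 0.124), while CG40042 (106 and 102 FPKM) and CG42598 (0.49 and 0.61 FPKM) overlapped. CG3651 was the member nearest to a rise, with 22.4, 22.9 and 23.7 FPKM on normal food and 26.3, 25.2 and 25.7 FPKM on spermidine food (limma, adjusted p = 0.0786). It lies among members that did not fall and shares 1833 exonic bases with CycK on the opposite strand.

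**Figure D3:**
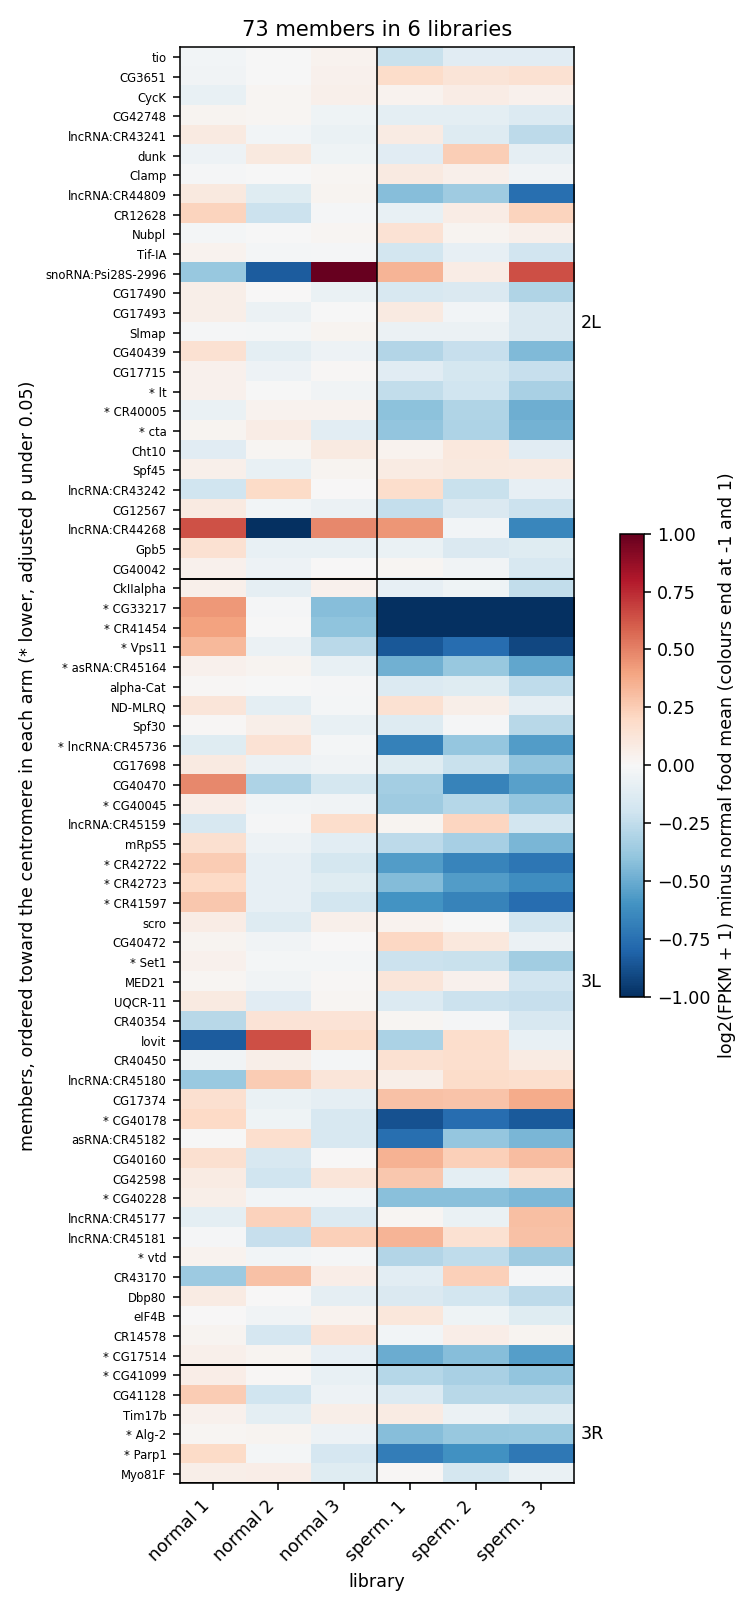
Log2(FPKM + 1) of each of the 73 members (rows, ordered toward the centromere within each arm, stars for those lower at a limma adjusted p under 0.05) in each library (columns), as the difference from the normal food mean; colours end at -1 and 1. The 20 starred rows are lower in all 3 spermidine food libraries, and the unstarred rows are mixed.

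Of 22 non-coding RNAs and pseudogenes 7 fell and none rose, with a median log2 fold change of -0.07. Some of these entries had FPKM values that tracked a neighbour, and others did so less closely. The pseudogene CR41454 lies next to CG33217 and held 1.26 to 1.498 times its FPKM in every library, and on the log2 scale it fell by 1.29 (limma, adjusted p = 0.0263). The authors' deposited table lists it at 0 mean normalized counts in both groups. The pseudogene CR42722 did not keep a constant ratio to its neighbour mRpS5. In replicates 1, 2 and 3 its FPKM was 0.688, 0.628 and 0.613 times that of mRpS5 on normal food. On spermidine food it was 0.519, 0.509 and 0.529 times that of mRpS5. For the pseudogenes CR42723 and CR41597 this ratio was also lower in every spermidine food library than in every normal food library. CR42722, CR42723 and CR41597, which follow mRpS5 on 3L, on the log2 scale fell by 0.65, fell by 0.54 and fell by 0.68 (limma, adjusted p = 0.0334, 0.0340 and 0.0332). These calls held in only 2, 1 and 2 of the 6 fits with a library left out (limma, highest adjusted p = 0.138 for each). In the authors' deposited table CR42722 and CR42723 are also at 0 in both groups, whereas CR41597 goes from 107 to 44.9 mean normalized counts. The pseudogene CR40005, between lt and cta, on the log2 scale fell by 0.40 (limma, adjusted p = 0.0260), with 0 and 2.5 mean normalized counts in the authors' deposited table. Whether such entries share sequence with their neighbours was not tested.

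A long non-coding RNA with counted reads, lncRNA:CR45736, had 6.57, 8.08 and 7.11 FPKM on normal food and 4.15, 5.31 and 4.59 FPKM on spermidine food. Its groups were apart, and it fell by 0.54 ± 0.10 on the log2 scale (SE; limma, adjusted p = 0.0419). The call held in only 1 of the 6 fits with a library left out (limma, highest adjusted p = 0.152). lncRNA:CR44809 had 1.38 ± 0.18 and 0.68 ± 0.24 FPKM (SD, n = 3 each) and did not pass (adjusted p = 0.0844). The antisense RNA asRNA:CR45182, inside the span of CG40178, had 20.3 and 13.8 FPKM (adjusted p = 0.0673). Its mean normalized counts in the authors' deposited table were only 0.98 and 0.71. The small nucleolar RNA snoRNA:Psi28S-2996, with 23.7, 17.0 and 73.7 FPKM on normal food and 39.6, 32.9 and 49.2 FPKM on spermidine food, had the widest scatter relative to its mean on normal food of the members named here. Only 15 of the 66 members were lower when the 7 with deposited mean normalized counts under 10 in both groups were left out, a comparison added after the values were seen, and the median log2 fold change was then -0.11.

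The authors' deposited means and p-values gave a broader lean in the same direction. Adjusted over the 10366 genes, the authors' deposited p-values placed 29 members lower and 2 higher (CG3651 and CG17374), where the background was 8.7% lower and 8.2% higher. Of the 20 lower calls by limma, 15 were lower there too, and the other 5 were the entries with few counted reads (CR40005, CR41454, asRNA:CR45164, CR42722 and CR42723). A further 14 members were lower in the authors' deposited table and not in limma. Over the 66 members with counts of at least 10 in both groups, the median log2 ratio of the authors' deposited mean normalized counts was -0.18, and 9 had a sign opposite to that of FPKM. The widest disagreement was CG40472, a mitochondrial entry with 207 and 220.5 FPKM but 203 and 93.2 mean normalized counts in the authors' deposited table. Its FPKM was 0.789 to 0.825 times that of ND-AGGG in every library.

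**Figure D4:**
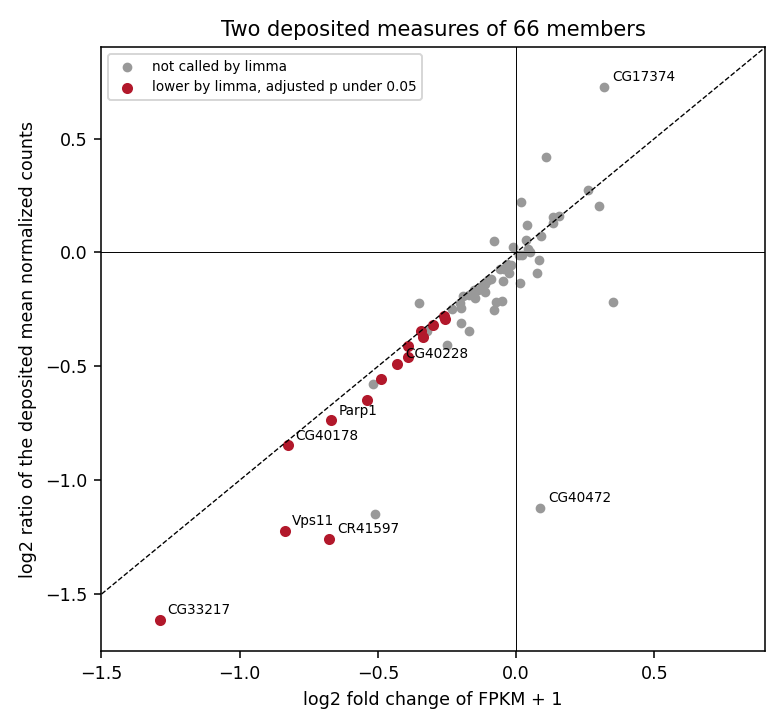
Log2 ratio of the authors' deposited mean normalized counts (vertical axis) against the log2 fold change of FPKM + 1 (horizontal axis) for the 66 members with enough counted reads; red points are lower by limma at an adjusted p under 0.05. All 15 red points lie below 0 on both axes, and CG40472 stands apart from the rest.

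Along the arms, the lower genes began at different distances from the limits. On 2L none of the 11 members in the first 0.5 Mb fell, and all 3 falls (lt, CR40005 and cta) lay among the 10 members of the next 0.5 Mb. On 3L 4 of the 7 members in the first 0.5 Mb fell, and 3 of the 11 members more than 3 Mb inside did. Those 4 were CG33217, CR41454, Vps11 and asRNA:CR45164. Of them, CR41454 and asRNA:CR45164 had deposited mean normalized counts under 10 in both groups, as had CR40005 on 2L. On 3R 3 of 6 fell, all within 1 Mb of the limit. By arm, 3 of 27 members of 2L fell (median log2 fold change -0.09), 14 of 40 of 3L (-0.18) and 3 of 6 of 3R (-0.28). Over the 3 arms together, 6 of 22 members fell in the first 0.5 Mb inside the limits, while 2 of 107 genes did in the last 0.5 Mb outside them.

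The limits themselves cut through genes of small change on 2L. Just inside them lay tio (-0.15), CG3651 (0.15) and CycK (0.05), and just outside CG1416 (0.08), CG31612 (-0.02) and tsh (-0.06), as log2 fold changes. On 3L CkIIalpha (-0.12), CG33217 (-1.29) and CR41454 (-1.29) lay inside, and Mes2 (0.05), lncRNA:CR45758 (-0.08) and nrm (0.00) outside. On 3R CG41099 (-0.34), CG41128 (-0.23) and Tim17b (-0.03) lay inside, and CG12581 (-0.02), Gfat1 (-0.23) and CG42402 (-0.14) outside. As a description over genes that share the same libraries, Spearman's rho between log2 fold change and distance inside the limit was -0.23 on 2L (n = 27 genes) and 0.42 on 3L (n = 40 genes). Over all 73 members rho was -0.15 with gene span and -0.20 with mean FPKM.

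**Figure D5:**
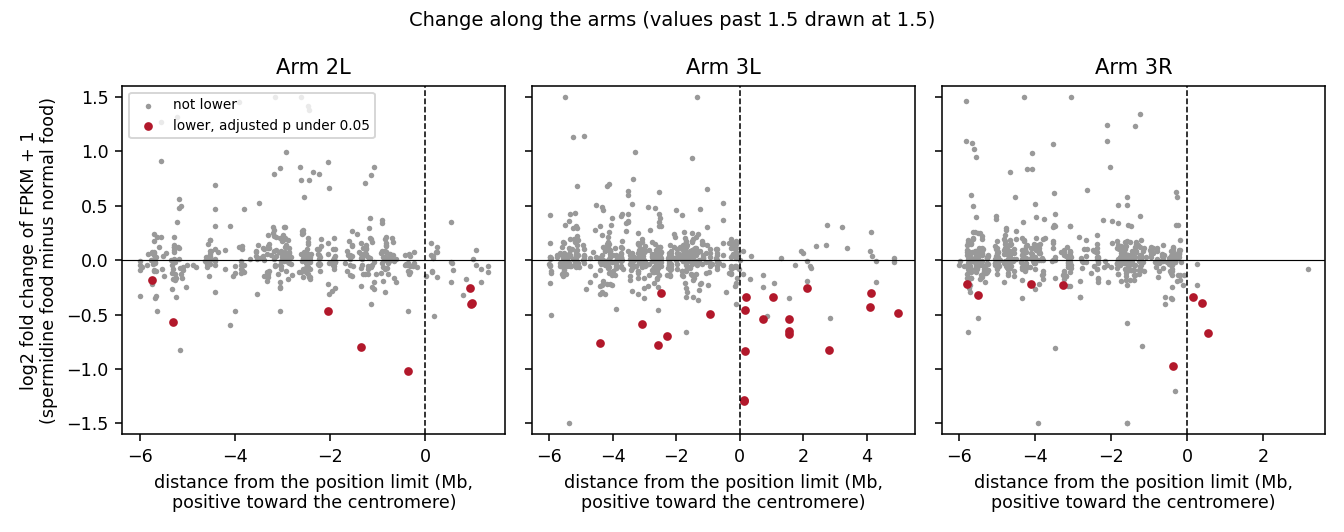
Log2 fold change of each tested gene (vertical axis, values past 1.5 drawn at 1.5) against its distance in Mb from the position limit of its arm (horizontal axis, positive toward the centromere), 1 panel per arm; red points are lower at a limma adjusted p under 0.05. To the right of the dashed line 3 members of 2L, 14 of 3L and 3 of 3R are red. A further red point there on 3L is nAChRalpha4, which was left out by symbol.

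The shift was present in each spermidine food library but was not equal. Relative to the normal food mean, the median member stood at -0.11, -0.12 and -0.22 on the log2 scale in spermidine food replicates 1, 2 and 3, while the median of all tested genes stood at 0.01, 0.03 and 0.03. Spermidine food replicate 3 was the lowest of its group in 47 of 73 members (64.4%, against 31.1% of all tested genes). Normal food replicate 1 was the highest of its group in 44 members (60.3%, against 46.6% of all tested genes). Leaving out normal food replicate 1, the library low in photoreceptor RNA, 16 members and 0.752% of all tested genes were lower. The median log2 fold change of the members was then -0.14. Leaving out spermidine food replicate 3, 2 members were lower (CG40228 and Alg-2), the median was -0.10, and 0.0579% of all tested genes were lower. The number of lower members was 4 without spermidine food replicate 1, 12 without spermidine food replicate 2 and 7 without normal food replicate 2, and it was 15 without normal food replicate 3. In the same order, 0.396%, 0.801%, 0.463% and 0.907% of all tested genes were lower in those fits.

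No gene on a list of heterochromatin proteins was called by limma. Of 44 listed genes, 41 were found by symbol and 40 could be tested, with a median log2 fold change of 0.00. Listed genes not found by symbol may be present under another name. At an unadjusted p under 0.05, 803 of all 10366 tested genes were lower and 1380 higher, and 2 of these 40 were lower and 1 higher. By the authors' deposited p-values 2 of them were lower and none higher, against 8.7% and 8.2% of all tested genes. The gene of HP1a (FBgn0003607) had 83.3, 83.9 and 77.9 FPKM on normal food and 78.9, 76.7 and 71.9 FPKM on spermidine food, with overlapping groups (limma, adjusted p = 0.291). Su(var)3-9, a methyltransferase of histone H3 lysine 9, had means of 2.76 and 2.81 FPKM.

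Some well-known residents of these stretches were too low to test. nvd and spok, which act in the synthesis of the moulting hormone ecdysone, reached at most 0.164 and 0.353 FPKM in any library. Pzl reached 0.0306 FPKM and Marf1 0.511 FPKM. Among the 46 genes under the minimum, 11 were listed at 0 in all libraries and 6 reached 0.5 FPKM at least once. Of the 7 measured genes left out by symbol, nAChRalpha4, a nicotinic receptor subunit, fell, from 52.8 to 41.4 FPKM (limma, adjusted p = 0.0311), and the ribosomal protein genes RpL21, RpL5, RpL10 and RpL15, the synaptic gene Snap25 and ND-AGGG did not pass.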

How the data were processed

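Per the labels, RNA was extracted with Trizol and libraries were made with a stranded mRNA kit. The submitters' processing notes name HTSeq, Cufflinks and DESeq without version or role; an aligner was not given in the sources used here. Per the file headers the gene models come from Ensembl build 82, whose coordinates are printed. Of 17141 genes, 99.83% lay at the same place within 2000 bases in the Ensembl annotation of the current assembly, as did 65 of the 67 members found there (Myo81F and CG17490 did not).

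The authors deposited an FPKM value with a status per gene and library. They also deposited a mean normalized count per group, used here as a signal, a signed fold change, treated as a score, and an unadjusted p-value. FPKM sums ran from 615229 to 720639 per library, and the deposited count means summed to 48052547 on normal food and 47904049 on spermidine food. Depth per library was not given, so there are no counting intervals.

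Genes with a status other than OK (215) were left out. limma 3.58.1 in R 4.3.3, with an intensity trend and no covariates, was run on log2(FPKM + 1) of the 10366 genes that reached an FPKM of 0.5 in 3 or more libraries, two-sided, with Benjamini-Hochberg adjustment and a threshold of 0.05. The test had been planned for counts if the table held them. Fold changes on that scale understate changes of low genes. The model was tested on simulated data. Printed means are FPKM over 3 libraries.

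Members and lists were chosen with earlier results of these data known, and role groups were assigned from gene names after the values were seen. Named members are those past the threshold, in each arm the 6 with the smallest p and the 3 highest in FPKM, the 3 genes each side of each limit, and lt, cta, nvd, spok, Parp1, vtd, Dbp80, Myo81F, Pzl, Marf1 and Cht10. Other genes were named after their values were seen. Alternatives covered scaling, filter, pseudocount, trend, replicate block, threshold, limits, symbols left out, the authors' p-values and each library left out.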

Additional observations from a re-analysis of the deposited data

How the results depend on the processing

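The median log2 fold change of the members stayed between -0.10 and -0.17 under every alternative run on it, and all 20 lower members kept a negative change without each library in turn. The number of lower members was 10 with no filter on low values, and between 2 and 16 with 1 library left out. Lower members numbered 21 under median-ratio scaling, 24 under quantile normalization, 18 without the trend and 27 at an adjusted p of 0.1. They numbered 14 of the 51 members under stricter limits and 21 of the 80 genes with the left-out symbols kept. The number of higher members was 2 by the authors' p-values and 1 at an adjusted p of 0.1. Over all genes, lower calls numbered 225 under median-ratio scaling and 122 without the trend. They numbered 309 under quantile normalization, 75 with no filter, 902 by the authors' p-values, 334 at an adjusted p of 0.1 and 6 to 94 with 1 library left out. Higher calls numbered 186, 850, 644 and 49 to 239 in the last 4 of these settings. CG40228 and Alg-2 passed in all 6 fits with a library left out, and lt and Set1 in none. CG40178 and CG17514 passed in 5 of them, asRNA:CR45164, CG40045 and vtd in 4, and CR41454 and Parp1 in 3. CR40005, cta, CG33217, Vps11, CR42722, CR41597 and CG41099 passed in 2, and lncRNA:CR45736 and CR42723 in 1. The cause of these differences was not tested.

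The sign turned in 6 named members, of which CR40005 alone had been called. Cht10 (0.01) went to -0.0052 under median-ratio scaling, -0.0613 under quantile normalization, -0.0144 by the authors' values, and -0.0458 to 0.0718 without a library. ND-MLRQ (0.04) went to -0.0609 under quantile normalization and -0.0136 to 0.106 without a library, and Tim17b (-0.03) to -0.0938 to 0.0124 without a library. In the authors' values Nubpl was at -0.0841, CR40005 at 0.12 and CG40472 at -0.82 on the log2 scale.

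Replicate numbers gave no sign of pairing, as deviations of same-numbered libraries correlated at -0.05, -0.10 and 0.02. Those of differently numbered libraries correlated at -0.09 to 0.12. With so few libraries per food, these values cannot show that the libraries were unpaired. With the replicate number as a block 14 members were lower, 13 of them also lower without it, and 74 genes were lower and 183 higher in all. Library depth is unknown, so the precision of low FPKM values cannot be given.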

Other observations

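Because lt and Vps11 both encode HOPS subunits, the other subunits were looked up after those values had been seen, and they lie outside the pericentromeric stretches of 2L, 3L and 3R. Of these, dor had 12.0 FPKM in the normal food libraries and 12.6 FPKM in the spermidine food libraries, and car had 14.5 and 13.2 FPKM. Vps16A had 24.1 and 24.5 FPKM, and Vps39 had 9.92 and 10.4 FPKM. None of the 4 passed limma (adjusted p = 0.529, 0.222, 0.846 and 0.565). By subunit, the log2 fold changes were 0.06 for dor, -0.14 for car, 0.02 for Vps16A and 0.06 for Vps39, beside -0.26 for lt and -0.84 for Vps11. Whether the subunits differ from each other in their change was not tested.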
